A study of Mus musculus with 8 samples.

Results

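The nuclear genes for the subunits of complexes I, III, IV and V of the mitochondrial respiratory chain, and for the assembly factors of complex I, were followed through T cells of the mouse bone marrow. Members were taken by symbol, as the genes whose names begin with Nduf, Uqcr, Cox4 to Cox8 or Atp5 and that reached at least 100 UMIs (unique molecular identifiers, each marking 1 captured RNA molecule) over 4 gene expression libraries. The pattern matched 90 symbols, and 86 of the 32285 genes in the count tables were members: 38 of complex I, 8 assembly factors of complex I, 8 of complex III, 15 of complex IV and 17 of complex V. The choice used a gene's name and its total alone, not its pattern over cells. Cox4i2 with 114 UMIs and Cox7a1 with 134 lay just inside the limit, and Cox8b with 3 UMIs and Cox7b2, Cox8c and Ndufa4l2 with 0 lay outside it.

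The mice were of the C57BL/6 strain. The Runx1::Runx1t1 group, called the fusion group below, carried the conditional fusion allele and Mx1-Cre (Runx1Runx1t1/+; Mx1-Cre), and the control group carried the same allele without Mx1-Cre, although its labels call it wild type. Poly(I:C), which raises interferon and through it turns Mx1-Cre on, had been given to both groups by intraperitoneal injection, 4 times at 5 mg/kg on alternate days, and the marrow was taken 4 weeks later. Mx1-Cre is active in blood cells in general and in other interferon-responsive cells, so it does not limit the fusion to 1 lineage. Live CD3+ cells without the mCherry reporter of the fusion were sorted from T cells enriched by negative selection, and sequenced with 10x Genomics 5′ chemistry. Each group had 2 pools of 2 mice, replicate 1 and replicate 2, so every comparison rests on 4 pools at most.

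Electrons from NADH enter the chain at complex I, pass through ubiquinone to complex III and through cytochrome c to complex IV, and the proton gradient that these pumps build drives complex V, the ATP synthase. The 13 proteins encoded by the mitochondrial genome (the mt- genes) form the cores of these complexes, and all other subunits are made from nuclear genes and imported. Naive T cells rest on a low rate of oxidative phosphorylation, while activated and memory T cells remodel their mitochondria, and loss of mitochondrial function is a known trait of T cells under long antigen exposure.

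After filtering, 52711 of 56649 barcodes were kept, 12759 to 13768 per library, from libraries of 90958101 to 102883449 UMIs, and 49655 of them (94.2%) held a Cd3d, Cd3e or Cd3g UMI. Cells were placed in 8 classes by marker UMIs, with no respiratory chain gene among the markers. Cd8 cells (Cd8a or Cd8b1, no Cd4) were called Pdcd1 cells with at least 1 Pdcd1 UMI, then effector cells with at least 2 UMIs over Gzma, Gzmb, Prf1, Klrg1 and Cx3cr1, then memory cells with at least 2 over Ccl5, Cxcr3, Gzmk and Eomes, and naive cells with a UMI of naive T cell markers, Ccr7 among them, and none of the markers above. Cd4 cells were split into Foxp3 cells, naive cells by the same kind of gate, and other Cd4 cells, and co-receptor-negative cells had Cd3 UMIs but no Cd4, Cd8a or Cd8b1 UMI, a class in which a missed UMI cannot be told apart from a missing co-receptor. The classes held 3961 naive, 12391 memory, 4022 effector and 3002 Pdcd1 Cd8 cells, 383 naive, 5372 other and 1499 Foxp3 Cd4 cells, and 14024 co-receptor-negative cells. The summed T cell markers lay between 2528 and 6480 CPM (the usual counts-per-million scale, here the UMIs of a gene relative to all UMIs of a class in a pool) in every class and pool. Genes of B cells summed to at most 34.4 CPM and erythroid genes to at most 70.6 CPM, but myeloid genes reached 938 CPM in the effector cells and 1554 CPM in the co-receptor-negative cells of control replicate 1. Progenitor genes were higher in the fusion group, with 230 and 520 against 8.55 and 35.2 CPM in co-receptor-negative cells, and the part of these cells in the values below was not tested. Among the kept barcodes, 1409 sequences occurred in at least 2 libraries.

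The members together took a larger share of all UMIs in memory, effector and Pdcd1 than in naive Cd8 cells, in all 4 pools. In naive Cd8 cells the share was 1.56%, 1.55%, 1.54% and 1.60%. Pool values are given throughout in the order fusion replicate 1, fusion replicate 2, control replicate 1, control replicate 2. In Pdcd1 cells it was 2.04%, 2.06%, 1.87% and 1.92%. No pool of Pdcd1 cells overlapped a pool of naive cells, and the ratio of the shares within a pool was 1.20 to 1.33. Memory cells (1.72% ± 0.0524, SD, n = 4 pools) and effector cells (1.88% ± 0.0485) lay between them, with ratios to naive cells of 1.07 to 1.14 and 1.15 to 1.24. Counted per cell, the members gave 102 UMIs in naive, 147 in memory, 147 in effector and 140 in Pdcd1 Cd8 cells, as means of the 4 pools. Counts per cell depend on depth, and the median depth of these classes was 6272, 8031, 6585 and 6039.5 UMIs.

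Along with the rise in share, the share of the cytosolic ribosomal protein genes fell. The shares were therefore also taken over a denominator without ribosomal protein and mt- genes. The part of the ribosomal protein genes alone was not tested. These genes took 40.3% ± 0.759 of the UMIs of naive Cd8 cells, 36.7% ± 0.745 in memory, 29.2% ± 2.03 in effector and 25.4% ± 3.88 in Pdcd1 cells. When the ribosomal protein and mt- genes were left out of the total, the members took 2.71% ± 0.0684 in naive, 2.81% ± 0.0822 in memory, 2.72% ± 0.0455 in effector and 2.69% ± 0.0376 in Pdcd1 cells. On that denominator the ratio of Pdcd1 to naive cells was 0.972 to 1.01 over the pools. Shares below are of all UMIs unless this second denominator is named.

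The complexes did not move to the same degree. Complex I rose from 0.429% of all UMIs in naive cells to 0.483% in memory, 0.534% in effector and 0.563% in Pdcd1 Cd8 cells, and complex IV from 0.408% to 0.441%, 0.491% and 0.535%. Complex V went from 0.547% to 0.613%, 0.657% and 0.666%. Without ribosomal protein and mt- genes, the ratio of complex V in Pdcd1 to naive cells was 0.962. Complex III moved least of all, from 0.166% to 0.169%, 0.180% and 0.189%. Its ratio to naive cells was 0.981 to 1.06 in memory and 1.05 to 1.23 in Pdcd1 cells, and without ribosomal protein and mt- genes it was 0.848 to 0.924 in Pdcd1 cells, below 1 in every pool. The 8 assembly factors of complex I, which help to build the enzyme and do not stay in it, had the widest ratio in Pdcd1 cells on the share of all UMIs, 1.24 to 1.5. The differences between complexes were not tested.

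**Figure D1:**
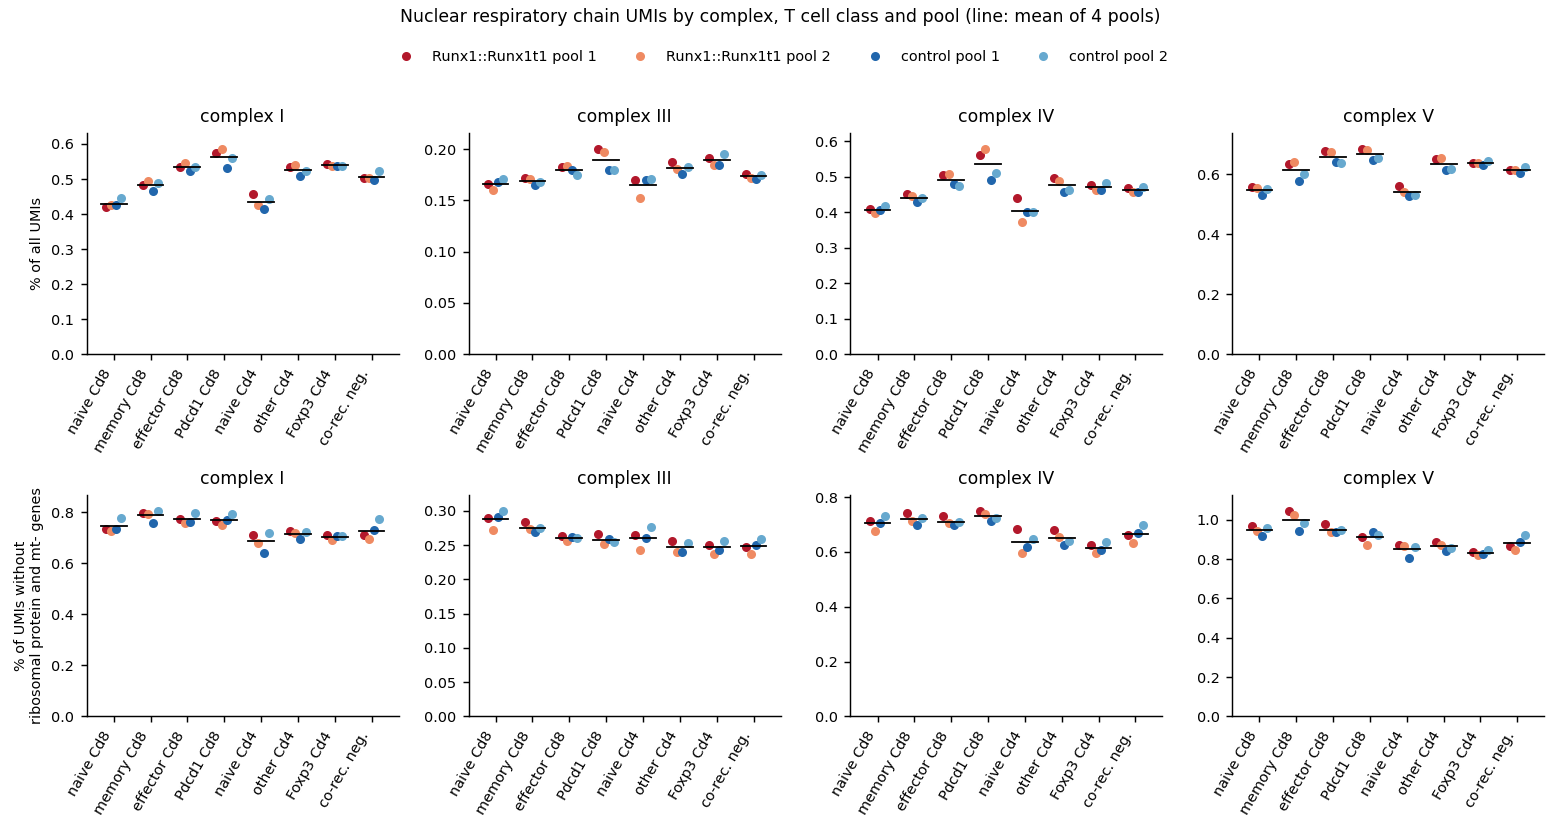
The share of UMIs taken by the members of complexes I, III, IV and V, in % of all UMIs (upper row) and in % of UMIs without ribosomal protein and mt- genes (lower row), in the 8 classes, with a point per pool and a line at the mean of 4 pools. In the upper row the Pdcd1 Cd8 points of complex I (0.532% to 0.585%) lie above the naive ones (0.421% to 0.445%), and in the lower row the Pdcd1 points of complex III (0.252% to 0.267%) lie under the naive ones (0.273% to 0.299%).

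Single genes were compared on the UMIs summed per class and pool, blocked by pool, with edgeR's quasi-likelihood test and Benjamini-Hochberg adjustment over 11580 genes, of which 84 were members. Cox4i2 and Cox7a1 fell under the filter on low counts. The fit was scaled by trimmed mean of M values (TMM), which centres most genes near no change. Scaling by total UMIs in its place shifted every member's log2 fold change up by nearly the same amount, 0.05 for memory, 0.23 for effector and 0.34 for Pdcd1 against naive Cd8 cells at the median. The median over all genes moved with it, from 0.01 to 0.06, from 0.00 to 0.23 and from 0.02 to 0.36. A member was therefore read as higher or lower relative to most other genes, and its sign on total UMIs is given where it turns.

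Between memory and naive Cd8 cells, 31 of 84 members (36.9%) were higher and 4 (4.8%) lower at an adjusted p under 0.05 by edgeR's quasi-likelihood test, where 16.6% of all genes were higher and 12.1% lower. With total UMIs as the library size these counts were 48 and 3, where 20% of all genes were higher and 8.54% lower. On both scales 31 and 3 members were called the same way, as were 16.6% and 8.54% of all genes. Total UMIs shifted fold changes up, here and for effector and Pdcd1 cells below. Higher calls under TMM were therefore set to recur, and their agreement between the scales is no second check. Of the 38 complex I subunits 16 rose, as did 6 of 13 tested in complex IV and 5 of 17 in complex V. Their median log2 fold change was 0.13, where the median over all genes was 0.01. The member with the largest rise was Ndufa4, a small subunit first assigned to complex I and now placed in complex IV (it is counted by name with complex I here), at a log2 fold change of 0.47 (SE 0.05, adjusted p = 1.2e-07, n = 4 pools). Ndufa12, an accessory subunit of the peripheral arm of complex I, rose by 0.43 (adjusted p = 4.3e-06), and Uqcr11, a small subunit of complex III, by 0.40 (adjusted p = 7e-06). Cox5a, a matrix-side subunit of complex IV, rose by 0.36 and Ndufb7, of the membrane arm of complex I, by 0.35. Each of these 5 moved upward in 4 of 4 pools. When any 1 pool was left out, 19 to 25 members were called in place of 35.

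Between effector and naive Cd8 cells, 30 members (35.7%) were higher and 10 (11.9%) lower, where 23.8% and 20.8% of all genes were. On total UMIs the counts were 65 and 2, where 41.4% of all genes were higher and 9.46% lower, and 30 and 2 were called the same way on both scales. In complex I 17 subunits were higher and 3 lower. Ndufb7 and Ndufa4 each rose by 0.52 (adjusted p = 5.9e-07 and 9.4e-09), Ndufaf3, an assembly factor of complex I, and Ndufa12 by 0.44 each, and Cox5a by 0.43. Of the 20 subunits assigned to the membrane arm, which pumps protons, 12 were higher and 2 lower, while of the 16 of the peripheral arm, which takes the electrons from NADH, 4 were higher and 1 lower. In memory cells these counts were 11 and 0 against 4 and 1, and in Pdcd1 cells 8 and 4 against 4 and 3. The difference between the arms was not tested.

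Between Pdcd1 and naive Cd8 cells under TMM, fewer members were called higher and more were called lower than in the comparisons of memory and effector cells. On total UMIs, more were called higher than in either of those comparisons. At the same threshold under TMM, 27 members (32.1%) were higher and 18 (21.4%) lower, close to the 27.1% and 25.4% of all genes. On total UMIs 68 were higher and 3 lower, where 50.6% of all genes were higher and 11.8% lower, and 27 and 3 were called the same way on both scales, as were 27.1% and 11.8% of all genes. The middle 80% of the members lay between -0.35 and 0.51 on the log2 scale, a narrower range than the -0.93 to 1.31 of all genes. Within complexes I, III, IV and V alike, some subunits were called higher and others lower.

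**Figure D2:**
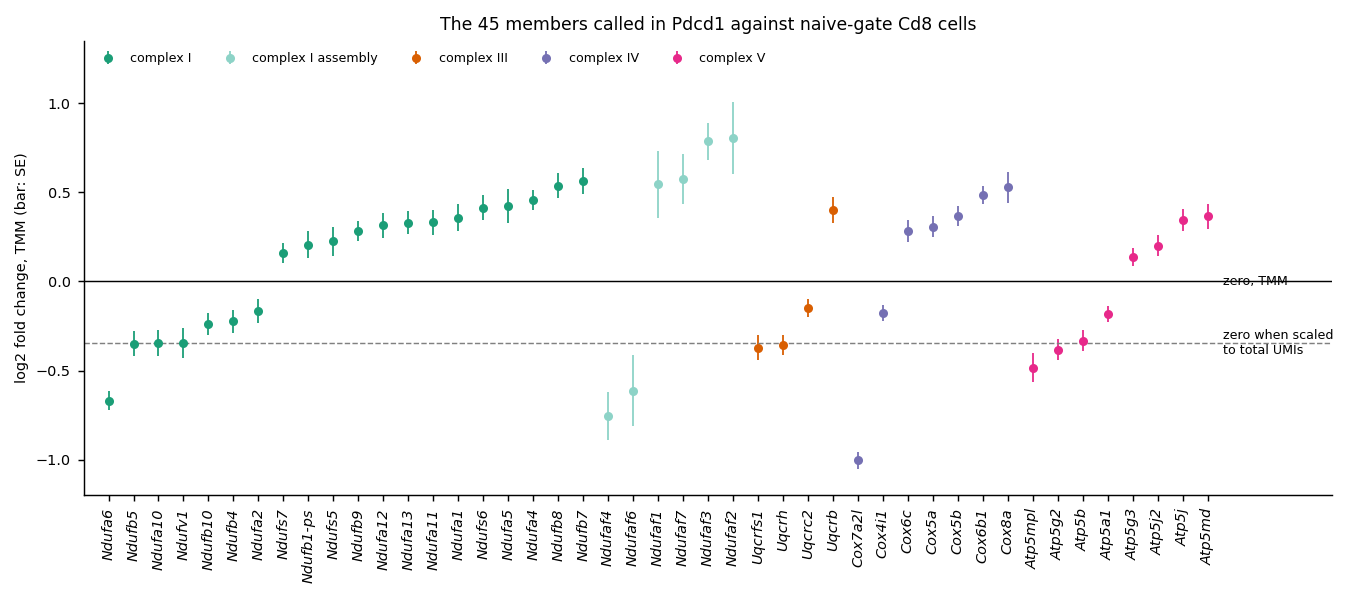
The log2 fold change (TMM) of the 45 members called between Pdcd1 and naive-gate Cd8 cells, by edgeR's quasi-likelihood test over 4 pools, ordered by complex and with SE as bars. The solid line marks no change under TMM and the dashed line, 0.34 lower, the place of no change when libraries are scaled to total UMIs; Cox7a2l lies lowest at -1.0, and Cox7a2l, Ndufa6 and Ndufaf4 are the 3 members called lower on both scales.

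Cox7a2l fell most clearly. It encodes SCAF1, a relative of the complex IV subunit Cox7a2 that tethers complex IV to complex III in respiratory supercomplexes, and C57BL/6 mice carry a short form of the protein. The gene lies on chromosome 17 at 83501918 to 83517330 on the minus strand (GRCm38, GENCODE annotation). In naive Cd8 cells it stood at 694, 674, 714 and 664 CPM in the 4 pools, in memory cells at 509, 471, 535 and 487 CPM, in effector cells at 459, 419, 468 and 424 CPM, and in Pdcd1 cells at 409, 418, 499 and 419 CPM. The naive pools lay above every pool of the other Cd8 classes, while effector and Pdcd1 cells overlapped. The log2 fold change against naive cells was -0.51 in memory (adjusted p = 1.9e-09), -0.87 in effector (3.2e-14) and -1.0 in Pdcd1 cells (SE 0.05, adjusted p = 5.5e-15) by edgeR's quasi-likelihood test, with every pool lower. On total UMIs the falls were -0.46, -0.63 and -0.66. Leaving out any 1 pool gave -1.06 to -0.96 for Pdcd1 cells.

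Cox7a2l was also lower in other than in naive Cd4 cells, at 456, 426, 446 and 430 against 652, 600, 681 and 623 CPM, a log2 fold change of -0.69 (edgeR's quasi-likelihood test, adjusted p = 2.7e-10) that every pool showed. Its paralog Cox7a2, a regular subunit of complex IV, stood at 212 ± 5.63 CPM in naive and 289 ± 14.3 CPM in Pdcd1 Cd8 cells (SD, n = 4) and was not called on the TMM scale. Co-receptor-negative cells had 451 ± 10.3 CPM of Cox7a2l, near the level of effector cells.

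Ndufa6, an accessory subunit of the peripheral arm of complex I (chromosome 15, 82350140 to 82354322, minus strand), followed the same order at a smaller size. It stood at 376, 376, 399 and 417 CPM in naive Cd8 cells and at 322, 312, 291 and 322 CPM in Pdcd1 cells, without overlap. The log2 fold change was -0.27 in memory (adjusted p = 9.6e-05), -0.48 in effector (5.4e-09) and -0.67 in Pdcd1 cells (1.7e-11) by edgeR's quasi-likelihood test, and -0.32 in Pdcd1 cells on total UMIs.

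Cox7a2l, Ndufa6, Uqcrfs1 and Uqcrh were the 4 members called lower in memory, effector and Pdcd1 Cd8 cells alike, as were 8.85% of all genes, and these 4 were also called lower in other against naive Cd4 cells. The 3 Cd8 comparisons share the naive sums. Uqcrfs1 is the Rieske iron-sulfur protein of complex III and Uqcrh its hinge protein. In Pdcd1 cells Uqcrfs1 had a log2 fold change of -0.37 (adjusted p = 4.9e-05) and Uqcrh of -0.36 (6.2e-06) by edgeR's quasi-likelihood test. Uqcrfs1 stood at 197, 197, 201 and 198 CPM in naive and at 199, 190, 218 and 174 CPM in Pdcd1 cells, and its log2 fold change on total UMIs was -0.03. Uqcrh stood at 675, 633, 731 and 738 CPM in naive and at 727, 715, 651 and 638 CPM in Pdcd1 cells, so that its share of UMIs was higher in both fusion pools and lower in both control pools, and its log2 fold change of -0.01 on total UMIs covers these opposite moves.

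In all 3 Cd8 comparisons with naive cells 18 members were called higher, as were 11.7% of all genes. They were Ndufa1, Ndufa4, Ndufa5, Ndufa12, Ndufa13, Ndufb7, Ndufb8, Ndufb9 and Ndufs6 among the Nduf subunits, the assembly factor Ndufaf3, Uqcrb of complex III, Cox5a, Cox5b, Cox6b1, Cox6c and Cox8a of complex IV, and Atp5j and Atp5j2 of complex V. Of these, 16, without Ndufa5 and Ndufaf3, were also called higher in other against naive Cd4 cells. Across the 84 members the fold changes of other Cd4 cells ranked like those of memory, effector and Pdcd1 Cd8 cells, with a Spearman rho of 0.75, 0.77 and 0.77, where all 11580 genes gave 0.52, 0.62 and 0.63. Pearson's r was 0.76, 0.85 and 0.53 for the members and 0.55, 0.61 and 0.62 for all genes, so that for Pdcd1 cells the members lay below all genes by this measure. These are correlations across genes, which are not independent replicates. The Cd4 and Cd8 sums share no cells but come from the same 4 libraries.

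Cox8a rose in all 3 comparisons and most in Pdcd1 cells. It encodes the ubiquitous form of the smallest subunit of complex IV and lies on chromosome 19 at 7215153 to 7217616 (minus strand). It stood at 541, 539, 609 and 636 CPM in naive and at 1166, 1311, 853 and 904 CPM in Pdcd1 Cd8 cells. All Pdcd1 pools lay above the naive ones, and the rise was larger in the fusion group, as described further on. The log2 fold change was 0.53 (SE 0.09, adjusted p = 1.2e-05, edgeR's quasi-likelihood test) and 0.87 on total UMIs. Ndufa4 stood at 209, 224, 212 and 232 CPM in naive and at 386, 394, 353 and 393 CPM in Pdcd1 cells, a log2 fold change of 0.46 (SE 0.06, adjusted p = 1.1e-07). In effector cells it stood at 350 to 382 CPM, overlapping the Pdcd1 pools.

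Cox6b1, a subunit on the intermembrane side of complex IV, rose from 210 ± 8.48 to 372 ± 29.9 CPM (SD, n = 4), a log2 fold change of 0.48 (edgeR's quasi-likelihood test, adjusted p = 6.3e-09). Ndufb7 rose from 112 ± 8.93 to 211 ± 33.0 CPM (log2 fold change 0.56) and Ndufb8, also of the membrane arm, from 92 ± 3.28 to 166 ± 28.4 CPM (0.54). Cox5b rose from 317 to 518 CPM at the mean and Cox5a from 196 to 309 CPM. Cox4i1, the ubiquitous form of the largest nuclear subunit of complex IV, stood at 742 ± 15.1 CPM in naive and 833 ± 26.1 CPM in Pdcd1 cells. Its log2 fold change was -0.17 under TMM (adjusted p = 0.0018) and 0.17 on total UMIs.

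**Figure D3:**
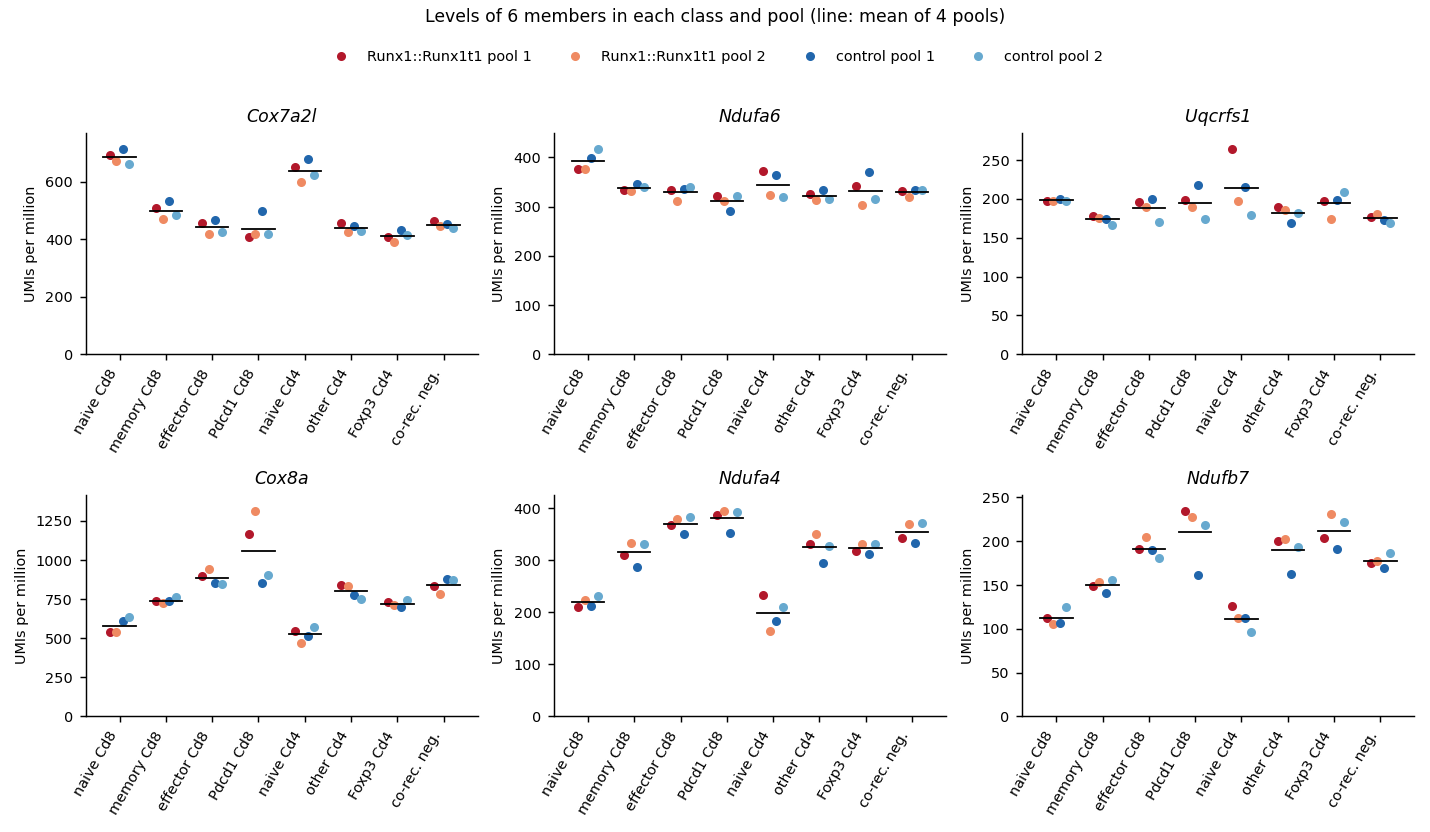
The level of Cox7a2l, Ndufa6, Uqcrfs1, Cox8a, Ndufa4 and Ndufb7 in CPM in the 8 classes, with a point per pool and a line at the mean. Cox7a2l is highest in both naive classes (600 to 714 CPM), Uqcrfs1 is nearly level in the Cd8 classes, and the Cox8a points of Pdcd1 cells separate by group (1166 and 1311 against 853 and 904 CPM).

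Among the assembly factors, Ndufaf3 rose from 14.3, 15.8, 21.8 and 19.3 CPM in naive to 35.7, 44.8, 30.9 and 42.6 CPM in Pdcd1 cells, a log2 fold change of 0.79 (SE 0.10, adjusted p = 2.7e-07, edgeR's quasi-likelihood test). Ndufaf4, its partner in an early assembly step, did not rise with it. It stood at 34.6, 31.6, 29.1 and 33.3 CPM in naive and at 23.8, 23.0, 37.3 and 24.0 CPM in Pdcd1 cells, where control replicate 1 lay above its naive value and the other 3 pools below theirs. The log2 fold change of Ndufaf4 was -0.75 (adjusted p = 2.6e-05). Ndufaf1 (0.54), Ndufaf2 (0.81) and Ndufaf7 (0.57) were called higher and Ndufaf6 (-0.61) lower, at mean levels of 6.68 to 17.6 CPM in Pdcd1 cells, and of these 4 Ndufaf1 alone moved the same way in all 4 pools.

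Complex V had 4 of 17 members higher and 4 lower in Pdcd1 than in naive Cd8 cells, near the 27.1% and 25.4% of all genes. Atp5b, the catalytic beta subunit, stood at 566 ± 38.5 CPM in naive and 571 ± 11.8 CPM in Pdcd1 cells, and its log2 fold change was -0.33 under TMM (adjusted p = 1.9e-05, edgeR's quasi-likelihood test) and 0.01 on total UMIs. The membrane ring of the c subunit is encoded by Atp5g1, Atp5g2 and Atp5g3, which give the same mature protein. Atp5g3 rose from 424 to 593 CPM (log2 fold change 0.14, adjusted p = 0.03), Atp5g2 had 561 and 549 CPM (-0.38, adjusted p = 5.5e-06), and Atp5g1 had 131 and 153 CPM and was not called. Atp5mpl, a small membrane subunit, had a log2 fold change of -0.48 (-0.14 on total UMIs), while Atp5md, the DAPIT subunit found where synthase dimers join, rose by 0.37, upward in 3 of 4 pools. Reads that match several genes are not counted in these tables, so members with close copies elsewhere in the genome can be undercounted.

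The promoters of 2 members that fell, Cox7a2l and Ndufa6, and 3 that rose, Cox8a, Cox6b1 and Ndufa4, are shown as examples with and without the motifs searched. They cover 250 bases before to 50 after the start of the RefSeq gene (GRCm38.p6), 5′ to 3′ on the strand of the gene, and capitals mark a match to the core of the NRF1 site (GCATGCGC or its reverse complement GCGCATGC) or of the ETS site that GABP binds (CCGGAAG or CTTCCGG). NRF1 and GABP are known activators of nuclear respiratory chain genes.
Cox7a2l, chr17:83514284-83514583, minus strand: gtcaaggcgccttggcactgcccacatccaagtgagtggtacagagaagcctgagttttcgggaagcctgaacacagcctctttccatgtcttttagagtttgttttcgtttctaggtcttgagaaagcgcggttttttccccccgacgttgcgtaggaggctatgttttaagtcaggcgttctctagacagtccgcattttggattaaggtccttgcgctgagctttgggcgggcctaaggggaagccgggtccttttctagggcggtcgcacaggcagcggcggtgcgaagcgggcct
Ndufa6, chr15:82354242-82354541, minus strand: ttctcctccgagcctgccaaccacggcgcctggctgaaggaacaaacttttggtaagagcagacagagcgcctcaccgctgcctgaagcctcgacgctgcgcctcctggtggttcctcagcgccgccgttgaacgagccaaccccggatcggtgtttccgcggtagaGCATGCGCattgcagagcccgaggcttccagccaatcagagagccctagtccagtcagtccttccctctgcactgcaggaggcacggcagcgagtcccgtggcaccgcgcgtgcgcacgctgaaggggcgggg
Cox8a, chr19:7217567-7217866, minus strand: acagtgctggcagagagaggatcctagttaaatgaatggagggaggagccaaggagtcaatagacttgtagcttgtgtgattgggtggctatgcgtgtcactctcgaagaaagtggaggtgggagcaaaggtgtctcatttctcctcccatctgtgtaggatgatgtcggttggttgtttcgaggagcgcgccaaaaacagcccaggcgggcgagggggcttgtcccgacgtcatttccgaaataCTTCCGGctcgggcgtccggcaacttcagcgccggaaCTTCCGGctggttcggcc
Cox6b1, chr7:30626065-30626364, minus strand: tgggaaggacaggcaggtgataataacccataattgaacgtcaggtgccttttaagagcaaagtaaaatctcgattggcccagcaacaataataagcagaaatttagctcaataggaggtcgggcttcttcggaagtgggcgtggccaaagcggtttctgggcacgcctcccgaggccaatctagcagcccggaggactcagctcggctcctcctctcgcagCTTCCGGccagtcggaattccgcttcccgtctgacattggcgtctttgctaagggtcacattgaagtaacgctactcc
Ndufa4, chr6:11907401-11907700, minus strand: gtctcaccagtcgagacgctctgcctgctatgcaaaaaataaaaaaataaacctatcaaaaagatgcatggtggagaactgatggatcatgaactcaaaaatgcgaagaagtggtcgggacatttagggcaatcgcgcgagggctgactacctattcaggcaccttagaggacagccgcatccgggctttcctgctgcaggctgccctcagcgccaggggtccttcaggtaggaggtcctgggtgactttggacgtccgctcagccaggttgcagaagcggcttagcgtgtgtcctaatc
Cox7a2l and Ndufa4 had neither motif in this window, Ndufa6 had 1 NRF1 core, Cox8a had 2 ETS cores and Cox6b1 had 1. Of members not printed, Ndufb7, which rose, had 1 ETS core, and Cox5a and Cox5b, which rose, and Uqcrfs1, which fell under TMM, had neither. Of the 72 members with a RefSeq promoter, 11 (15.3%) held the NRF1 core, as did 824 of 27025 genes (3.05%). The ETS core stood in 17 (23.6%) against 9.93% of genes, and the GC box (GGGCGG, either strand) in 32 (44.4%) against 38.2%. Among members called higher in Pdcd1 cells 1 of 24 held the NRF1 core and 6 of 24 the ETS core, and among those called lower 3 of 12 and 1 of 12. The window of Cox7a2l starts inside the longer gene span of the GENCODE annotation. These counts describe letters in a window and were not tested.

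The mt- genes went the other way. Together they took 1.91%, 2.06%, 2.03% and 1.94% of the UMIs of naive Cd8 cells and 1.37%, 1.09%, 1.49% and 1.64% of those of Pdcd1 cells, lower in each pool at a ratio of 0.530 to 0.843. Of the 13 mt- genes, 0 were called in memory, 13 were lower in effector (median log2 fold change -0.53) and 13 lower in Pdcd1 cells (-0.85) by edgeR's quasi-likelihood test. On total UMIs, 12 were lower in effector and 13 in Pdcd1 cells, with a median of -0.51 in the latter. Pdcd1 cells also had lower levels of 12 of the 13 than effector cells had. In complex IV, whose core is made of mt-Co1, mt-Co2 and mt-Co3, the UMIs of the nuclear members over those of the 3 core genes gave a ratio of 0.452, 0.403, 0.427 and 0.450 in naive Cd8 cells. The ratio was 0.478 ± 0.0162 in memory, 0.620 ± 0.0338 in effector cells and 0.808, 1.04, 0.675 and 0.627 in Pdcd1 cells. This ratio does not depend on the ribosomal share, and every Pdcd1 pool lay above every naive and memory pool. Pdcd1 cells of control replicate 2, at 0.627, lay below the highest pools of effector (0.665), Foxp3 (0.662) and other Cd4 cells (0.662). Within each pool the ratio was higher in Pdcd1 than in effector cells. Barcodes over 15% mt- UMIs had been removed, 110, 107, 145 and 420 in the pools. In a fit without that limit, the 207 results compared with the main fit kept their direction and side of the threshold. The part of the limit in the mt- shares and the ratios above was not tested.

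**Figure D4:**
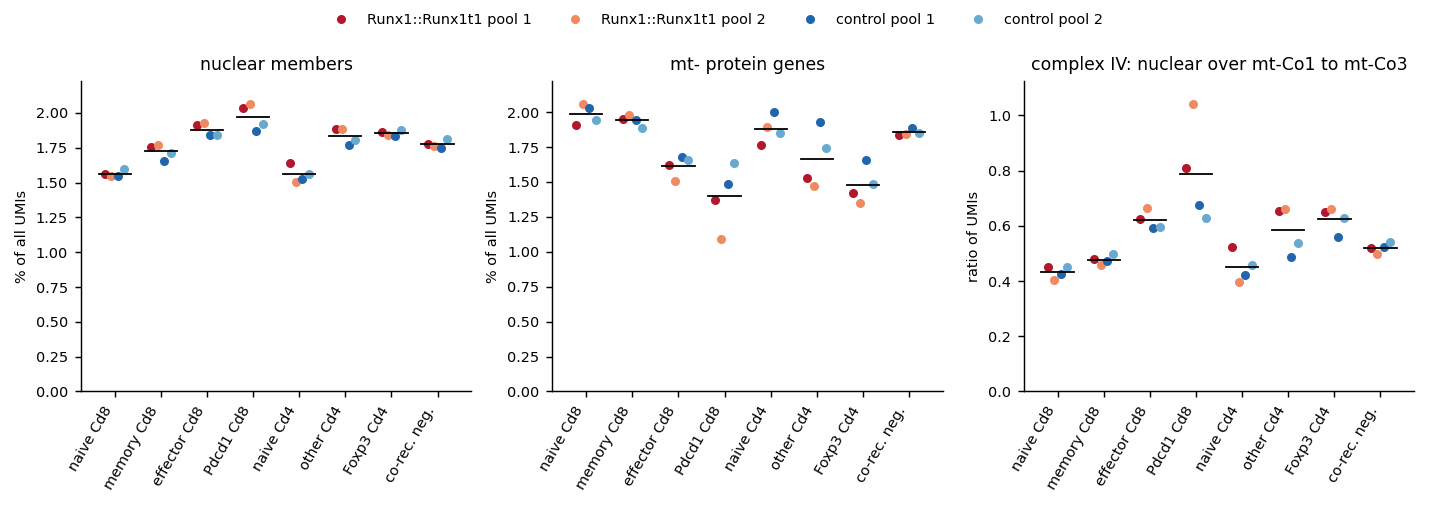
Share of all UMIs in % of the 86 nuclear members (left) and of the 13 mt- protein genes (middle), and the ratio of nuclear complex IV UMIs to those of mt-Co1, mt-Co2 and mt-Co3 (right), in the 8 classes, with a point per pool and a line at the mean. From naive to Pdcd1 Cd8 cells the nuclear share goes up (1.56% to 1.97% at the mean), the mt- share goes down (1.98% to 1.40%), and the ratio reaches 0.627 to 1.04.

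Genes of neighbouring pathways were read from lists chosen by function. Between Pdcd1 and naive Cd8 cells, where 27.1% of all genes were higher and 25.4% lower, 7 of 13 genes of glycolysis were higher and 1 lower, and on total UMIs 10 and 0, where 50.6% and 11.8% of all genes were. In memory cells 10 and 0 were, where 16.6% and 12.1% of all genes were. Gapdh rose by 0.60, Pfkp by 0.62 and Pkm by 0.37 on the log2 scale in Pdcd1 cells. In the citric acid cycle 3 of 12 were higher and 1 lower, among them Idh3a, the catalytic subunit of isocitrate dehydrogenase, at 0.70 and Idh3g of the same enzyme at -0.33 (0.02 on total UMIs). In complex II, which feeds electrons from succinate into the chain, Sdhb rose by 0.38 and Sdha, Sdhc and Sdhd were not called. Of 18 assembly factors of complexes III, IV and V, 6 were higher and 6 lower. The copper chaperones of complex IV were among the former, with Cox17 at 0.68 and Cox19 at 0.61, while Cox10, which makes its heme, was at -0.69. Of 11 genes of mitochondrial gene expression and biogenesis, 1 was higher and 7 lower, and on total UMIs 3 and 2. Pprc1 (-1.58) and Ppargc1b (-0.89), co-activators of nuclear genes for mitochondrial proteins, were called lower under TMM, as were Tfb2m (-0.59) and Polrmt (-0.52), which transcribe the mitochondrial genome. Esrra, a nuclear receptor these co-activators bind, rose by 0.44. Cycs, the cytochrome c that carries electrons from complex III to complex IV, rose by 0.29 in memory and 0.26 in effector cells and was at 0.15 in Pdcd1 cells, not called (adjusted p = 0.108). Of 78 proteins of the mitochondrial ribosome, which translates the mt- genes, 12 were higher (15.4%) and 19 lower (24.4%) in Pdcd1 cells, and 49 (62.8%) and 7 (8.97%) on total UMIs, to be read against the shares of all genes above.

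Pdcd1 and effector Cd8 cells differed in 11 of 84 members under TMM and in 19 on total UMIs. By edgeR's quasi-likelihood test 3 were higher and 8 lower in Pdcd1 cells, where 9.45% and 11.6% of all genes were. On total UMIs the split was 18 and 1, where 18.6% of all genes were higher and 7.49% lower. Ndufb8 was higher in all 4 pools (log2 fold change 0.23, adjusted p = 0.016). Atp5b (-0.22, adjusted p = 0.0059), Uqcr11 (-0.19), Ndufa6 (-0.18) and Atp5h (-0.16), the d subunit of the stalk of complex V, were lower in all 4. These calls depended on single pools, with 0 to 9 members called when 1 pool was left out. Without fusion replicate 1, and likewise without fusion replicate 2, the count was 0.

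Other Cd4 cells differed from naive Cd4 cells much as the Cd8 classes did. By edgeR's quasi-likelihood test 21 members (25.0%) were higher and 4 (4.8%) lower, where 10.9% and 8% of all genes were, and on total UMIs 45 were higher and 2 lower, where 17.4% and 5.23% of all genes were. Ndufb7 rose by 0.61 (adjusted p = 2.6e-05), from 112 ± 12.2 to 190 ± 18.3 CPM (SD, n = 4). Ndufc1, a small subunit of the membrane arm, rose by 0.58, Ndufa4 by 0.56 (adjusted p = 4.8e-07), Ndufa12 by 0.47 and Cox8a by 0.45. Naive Cd4 cells were few, at 65 to 118 a pool.

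Foxp3 and other Cd4 cells differed in few members. By edgeR's quasi-likelihood test 1 member was higher and 5 lower, where 11.2% and 10.3% of all genes were, and on total UMIs 5 were higher and 3 lower, where 12.7% and 8.07% of all genes were. Uqcr11 was higher at 154, 147, 137 and 144 CPM against 126, 111, 116 and 117 CPM in other Cd4 cells (log2 fold change 0.27, adjusted p = 0.002), with no overlap of the pools. Atp5h was lower at 495, 467, 485 and 493 against 572, 550, 520 and 537 CPM (-0.22, adjusted p = 0.0027), again without overlap. Cox6a1 (-0.21), Ndufb10 (-0.19) and Cox7a2l (-0.14) were lower by small amounts. The fifth was Cox6a2, which is treated with the rare isoforms below.

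Naive Cd4 cells against naive Cd8 cells turned on the scale. Under TMM 0 members were higher and 30 (35.7%) lower by edgeR's quasi-likelihood test, where 3.45% and 5.35% of all genes were, and 12 of the 30 belonged to the 17 members of complex V. On total UMIs 2 were higher and 2 lower, where 11% and 2.06% of all genes were. Atp5b, called at -0.44 (adjusted p = 1.5e-05), stood at 569, 512, 446 and 433 CPM in naive Cd4 and at 598, 600, 526 and 540 CPM in naive Cd8 cells. Ndufa9 (-0.59), Ndufa10 (-0.47), Ndufa6 (-0.42) and Cox8a (-0.38) were the others of the 5 largest changes. The members gave 78.8 UMIs per naive Cd4 cell and 102 per naive Cd8 cell at the mean. These cells also differed in median depth (4697 and 6272 UMIs) and in ribosomal share (34.7% and 40.3%).

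Co-receptor-negative cells had 12 members higher (14.3%) and 27 lower (32.1%) than naive Cd8 cells by edgeR's quasi-likelihood test, where 25.8% and 22% of all genes were. On total UMIs 58 were higher and 4 lower, where 51.1% and 7.52% of all genes were. Cox7a2l (-0.90), Ndufa6 (-0.55), Uqcrfs1 (-0.48), Uqcrh (-0.43) and Ndufaf5 (-0.41) were the lowest of those that moved in all 4 pools, and Ndufa4 (0.39), Ndufaf3 (0.37), Ndufb7 (0.35) and Uqcrb (0.29) were among the highest. Cox6a2 was called at 3.03 and is treated with the rare isoforms. Cox6b2, the testis form of Cox6b1, was called at 0.96 from a level of 1.52 against 3.33 CPM, and was at -0.02 when the class was limited to cells with a UMI of Klrb1c, a marker of NK-like T cells. Between 16.9% and 47.6% of the co-receptor-negative cells of a pool had such a UMI, with the higher shares in the control group.

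The groups were compared within 4 classes, with 2 pools against 2. By edgeR's quasi-likelihood test 0 members were called in naive Cd8, effector Cd8, Pdcd1 Cd8 or other Cd4 cells, where 1.05%, 0.138%, 3.42% and 2.14% of all genes were called. At an unadjusted p under 0.05 there were 5, 4, 6 and 18 members, counts given here without the share of all genes at that threshold. In other Cd4 cells those members were higher in the fusion group, except for Cox6a2, which was lower. DESeq2's Wald test called 1 member in Pdcd1 cells and 0 in the other 3 classes. The member nearest to a call in Pdcd1 cells was Cox8a, higher by 0.43 on the log2 scale in the fusion group (adjusted p = 0.0906). An exact test of 1 value over 2 against 2 pools cannot give a two-sided p under 0.333, and none was run. The share of all members in Pdcd1 cells was 2.04% and 2.06% in the fusion pools and 1.87% and 1.92% in the control pools, while in naive Cd8 cells it overlapped between the groups. Without ribosomal protein and mt- genes the Pdcd1 values were 2.72% and 2.64% against 2.70% and 2.72%, and the groups overlapped.

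The change from naive to Pdcd1 cells was then compared between the groups, as an interaction in the fit over all classes. By edgeR's quasi-likelihood test 3 members differed upward and 2 downward in the fusion group, where 2.32% and 4.6% of all genes did. Cox8a differed most clearly. On the log2 scale its Pdcd1 cells exceeded naive cells by 0.74 and 0.90 in the fusion pools against 0.18 and 0.20 in the control pools, a difference of 0.64 (SE 0.09, adjusted p = 0.00011), and of 0.70 on total UMIs. It was still called when any 1 of the 4 pools was left out, at 0.56 to 0.71. Atp5md rose by 0.48 and 0.58 against 0.34 and -0.05, a difference of 0.37 (adjusted p = 0.045), and without control replicate 1 or control replicate 2 that difference was 0.59 or 0.20. Uqcrh was at -0.26 and -0.21 against -0.47 and -0.52 under TMM (0.27, adjusted p = 0.037), while in CPM it was higher in Pdcd1 than in naive cells in both fusion pools. Atp5g1 was at -0.42 and -0.26 against 0.13 and 0.08, a difference of -0.47 (adjusted p = 0.031), and Atp5g2 at -0.46 and -0.60 against -0.16 and -0.29 (-0.31, adjusted p = 0.029). The last 2 missed the threshold on total UMIs. Of the 13 mt- genes, 7 differed downward in the fusion group, at a median of -0.41, and 5 did on total UMIs.

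The Pdcd1 class itself differed between the groups. It held 601 and 2176 cells in the fusion pools against 113 and 112 in the control pools. Its summed markers Pdcd1, Lag3, Tox, Havcr2 and Tigit stood at 1907 and 2293 against 645 and 683 CPM. Its median ribosomal share was 21.1% and 19.8% against 27.6% and 24.9%, and 17.3% and 17.1% against 10.6% and 10.7% of its cells passed the gate of cycling genes. The part of these differences in the 5 calls was not tested beyond fits with stricter gates and without cycling cells. With stricter gates Cox8a was at 0.64 and kept its call. Atp5md (0.25), Uqcrh (0.23), Atp5g1 (-0.18) and Atp5g2 (-0.23) then missed the threshold. Without cycling cells Cox8a was at 0.67, and 4 of the 5 kept their call, all but Atp5g1 (-0.47).

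**Figure D5:**
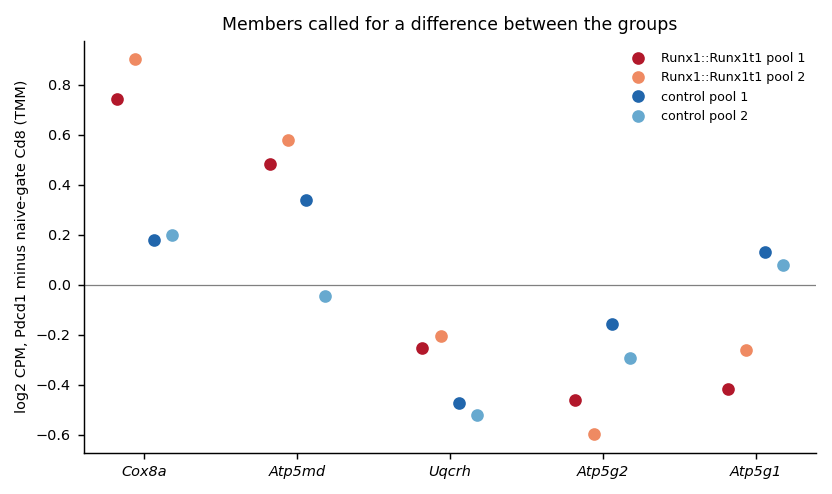
The log2 difference in CPM between Pdcd1 and naive-gate Cd8 cells (TMM) within each pool, for the 5 members called for a difference between the groups, with a point per pool. For Cox8a the fusion pools lie at 0.74 and 0.90 and the control pools at 0.18 and 0.20, and for Atp5g1 they lie at -0.42 and -0.26 against 0.13 and 0.08.

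The tissue forms of complex IV subunits gave few UMIs, a large part of them outside T cells for Cox6a2 and Cox4i2. Cox6a2, the heart and muscle form of Cox6a1, gave 1346 UMIs in 185 kept cells. Of these UMIs 63.4% lay in cells without a Cd3 UMI and 84.8% in the 104 cells with a UMI of Siglech, a marker of plasmacytoid dendritic cells, of which 3 and 4 came from the fusion pools and 54 and 43 from the control pools. Cox6a2 stood at 1.90, 0.256, 25.1 and 7.08 CPM in other Cd4 cells and was at 0 in all 4 pools of Foxp3 cells, and no fold is given for so few UMIs. Cox4i2, the hypoxia and lung form of Cox4i1, gave 105 UMIs in kept cells, 61.0% of them in cells without Cd3, and Cox7a1, the muscle form of Cox7a2, gave 124 UMIs in 118 cells.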

How the data were processed

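Bone marrow T cells of 4 pools were profiled by 10x Genomics 5′ single-cell RNA sequencing. The deposited gene expression tables hold raw UMI counts per gene and cell barcode, which the authors made with Cell Ranger 6.1.2 on GRCm38 without normalization; reads that match several genes are not counted. The T cell receptor libraries were not used here. The members and all lists were chosen with earlier results of these data known.

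Barcodes with fewer than 200 genes or over 15% mt- UMIs were removed. Doublets were called with Scrublet (expected rate 0.05), and in the 2 libraries where it marked under 0.5% of barcodes (replicate 1 of each group) the top 5% of scores were removed. The full marker list of the naive gates is not reported here. Counts were summed per class and pool (at least 20 cells, 32 sums). Class comparisons and the interaction were fitted with edgeR 4.0.16 (R 4.3.3), filterByExpr, TMM and the quasi-likelihood test, blocked by pool. Group comparisons used 2 pools against 2 within a class. Every adjusted p is from edgeR unless another tool is named, at a threshold of 0.05. Log2 differences within a pool used a prior count of 2. The replicate is the pool of 2 mice. In the group comparisons within a class, p-values measure the spread between pools. In the class comparisons and the interaction, the pool block removes the level of each pool. Their p-values rest on the spread that remains, taken over all classes together. They do not measure the spread between pools in the compared classes alone.

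Named members were the 3 most abundant per complex, up to 5 called members per direction and comparison with the largest change and 1 direction in each of the 4 pools, each member called for a group or interaction (up to 5 per direction), fixed paralog pairs, and the members next to the limit of 100 UMIs. Further called members are named where a count is spelled out, and were chosen after their values were seen. The fit was tested on simulated data. Alternatives were DESeq2 1.42.0 (size factors, Wald test), no filter on low counts, cells thinned to 2000 UMIs, no ribosomal protein and mt- genes, no cycling cells (at least 2 UMIs of cycling genes), doublets kept, no limit on mt- UMIs, gates at 4 UMIs (single genes at 2), no pool block, a replicate block, each pool left out, and total UMIs as the library size, which was chosen after seeing the data. Python 3.11.15 and scipy 1.17.1 were used for tables.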

Additional observations from a re-analysis of the deposited data

Results flagged for a closer look

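The change from naive to Pdcd1 Cd8 cells differed between the groups for 5 members, by the interaction in edgeR's quasi-likelihood test over 2 pools against 2. On the log2 scale the fusion group exceeded the control group by 0.64 for Cox8a, 0.37 for Atp5md and 0.27 for Uqcrh, and fell below it by -0.47 for Atp5g1 and -0.31 for Atp5g2. Cox8a kept its call under each of the 14 alternatives run, between 0.56 and 0.71. The other 4 did not. Atp5md and Uqcrh missed the threshold when any 1 of the 4 pools was left out, Atp5g1 kept it without fusion replicate 2 alone, and Atp5g2 without fusion replicate 1 alone. Atp5md was at 0.59 without control replicate 1 and at 0.20 without control replicate 2. All 4 also missed the threshold with thinned cells, where Atp5md was at 0.62, Uqcrh at 0.58, Atp5g1 at -0.55 and Atp5g2 at -0.29, and with stricter gates, where they were at 0.25, 0.23, -0.18 and -0.23. No member was called between the groups within Pdcd1 cells by edgeR's quasi-likelihood test, while DESeq2's Wald test called 1. At an unadjusted p under 0.05 edgeR's test gave 6, without the share of all genes beside it.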

How the results depend on the processing

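Which settings moved a count of called members differed between comparisons. With total UMIs as the library size, chosen after seeing the data, the counts went from 40 to 67 for effector, from 45 to 71 for Pdcd1, and from 39 to 62 for co-receptor-negative cells against naive Cd8 cells, from 11 to 19 for Pdcd1 against effector cells, from 25 to 47 for other against naive Cd4 cells, from 30 to 4 for naive Cd4 against naive Cd8 cells, and from 0 to 1 for the groups in other Cd4 cells. The 1 member called between the groups in other Cd4 cells on total UMIs was Cox6a2, treated above with the rare isoforms. With cells thinned the counts were 17 of 35 for memory against naive cells, 2 for Pdcd1 against effector cells, 7 for other Cd4, 17 for naive Cd4 and 2 of 5 for the interaction. Without the pool block they were 21 for memory, 2 for Pdcd1 against effector and 3 of 6 for Foxp3 cells. DESeq2's Wald test gave 19 for Pdcd1 against effector cells, 10 for Foxp3, 15 for naive Cd4 (15 with its size factors in edgeR), 1 for the groups in Pdcd1 cells and 8 for the interaction (3 with size factors). Stricter gates gave 5 for Pdcd1 against effector cells and 1 for the interaction. Keeping doublets gave 1 for the groups in other Cd4 cells and 2 for the interaction. Without the filter on low counts the groups gave 1 in effector, 2 in Pdcd1 and 2 in other Cd4 cells, and the interaction gave 3. Leaving out 1 pool at a time gave 19 to 25 for memory, 31 to 35 for effector, 36 to 46 for Pdcd1, 0 to 9 for Pdcd1 against effector, 17 to 22 for other Cd4, 1 to 5 for Foxp3, 13 to 23 for naive Cd4, 26 to 35 for co-receptor-negative cells, 0 to 0 for the groups in naive and effector Cd8 cells, 0 to 2 in Pdcd1 cells and 0 to 1 in other Cd4 cells, and 1 to 2 for the interaction. The cause of these changes was not tested, other than that leaving out a pool leaves fewer samples.

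Single members turned sign mainly between TMM and total UMIs. On total UMIs the log2 fold change was above 0 for Atp5b (0.12), Atp5g2 (0.038) and Cox4i1 (0.095) in effector cells, for Atp5b (0.011), Atp5e (0.31), Atp5g1 (0.19), Cox4i1 (0.17) and Cox6a1 (0.30) in Pdcd1 cells, for Cox4i1 (0.043) and Uqcrq (0.0095) in naive Cd4 cells, and for Atp5e (0.19), Atp5g3 (0.30), Cox4i1 (0.0040), Cox6a1 (0.27) and Uqcrq (0.13) in co-receptor-negative cells. With cells thinned it was below 0 for Atp5e (-0.18) and Atp5g1 (-0.39) in effector and for Atp5g3 (-0.042) and Ndufaf1 (-0.20) in Pdcd1 cells. Cox6b2 was at -0.024 in co-receptor-negative cells with Klrb1c. With the UMIs without ribosomal protein and mt- genes as denominator, the ratio of a share to that of naive Cd8 cells passed below 1 for complex I in naive Cd4 (0.923), other Cd4 (0.963), Foxp3 (0.946) and co-receptor-negative cells (0.977), and for complex III in memory (0.956), effector (0.904), Pdcd1 (0.896), other Cd4 (0.858), Foxp3 (0.856) and co-receptor-negative cells (0.863). It did so for complex IV in other Cd4 (0.920), Foxp3 (0.872) and co-receptor-negative cells (0.942), for complex V in Pdcd1 (0.962), other Cd4 (0.912), Foxp3 (0.879) and co-receptor-negative cells (0.930), and for all members in Pdcd1 (0.995), other Cd4 (0.924), Foxp3 (0.894) and co-receptor-negative cells (0.939). Of the remaining single values, 2752 kept their direction and side of the threshold, 266 lost a call, 71 gained one and 14 moved by more than the spread between pools.

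The replicate numbers pair no samples by the labels. Pools of the same number deviated from their group means with a correlation of 0.0372 in naive, 0.327 in memory, 0.194 in effector and 0.0664 in Pdcd1 Cd8 cells, of 0.0118 in naive, 0.126 in other and 0.0486 in Foxp3 Cd4 cells, and of 0.368 in co-receptor-negative cells, with 2 pairs each. With a replicate block the group comparisons called 0 members in naive, effector and Pdcd1 Cd8 cells and 1 in other Cd4 cells. Depth limits the rare members: naive Cd4 cells numbered 65 to 118 a pool and Pdcd1 cells of the control group 112 and 113, so members under 20 CPM rest on few UMIs there.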
